A study of Mus musculus with 14 samples.

Results

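The collagen genes were described here in primordial germ cells of the mouse, from which eggs and sperm later arise, across embryonic days (E) 9.5 to 13.5. Members were all genes whose platform symbol is Col, a number, a and a number, from probe sets listing exactly 1 symbol, with the probe set of the highest mean over the 14 arrays taken for each gene. This gave 42 of the 18194 genes measured, from 82 collagen probe sets, and 27 members had several probe sets. The name rule used no measured value beyond the choice of probe set.

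The data were Affymetrix expression arrays of 7 groups with 2 biological replicates apiece. The first 3 ages were not sexed (E9.5, E10.5, E11.5), and 2 were split into females and males (E12.5, E13.5). Cells from E10.5 to E13.5 were sorted by the fluorescence of a stella-EGFP transgene, a reporter of the germ cell gene Dppa3, from trypsin-digested genital ridges. The embryos were from BDF1 females mated with transgenic males of a mixed B6 and CBA background. For E9.5, an earlier study had used C57BL/6 mice, 22 PCR cycles of amplification against 12 and another RNA kit, and the labels describe no sort for that age. Age, strain and protocol therefore cannot be told apart at E9.5. Each library started from 5 ng of RNA, given as 500 cell equivalents, so each value is a bulk level, in which fewer cells of a type and less RNA per cell cannot be told apart. Dppa3 read 13.09 to 13.76 and Pou5f1, a pluripotency factor of germ cells, 12.44 to 13.09 over the 14 arrays. All values are log2 signals. Levels under the table median of 4.72 are called dim. The array medians were 4.66 to 4.80 and replicates correlated across genes with r of 0.961 to 0.981, where genes are not independent replicates. A gene was called when its adjusted p was under 0.05 in a linear model fitted with limma to all genes. Having only 2 arrays for each group limited the precision.

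Collagens are secreted proteins built from 3 chains wound into a triple helix, and each gene encodes 1 chain. Fibrillar collagens such as types I, III and V form the fibres of connective tissue and are made mainly by mesenchyme. Type IV collagen forms the sheet of basement membranes, and smaller families sit on fibrils, link cells to matrix or carry a fragment known as endostatin. Primordial germ cells migrate through matrix-rich tissue on the way to the genital ridges, and are later enclosed with supporting cells by a basement membrane in the testis.

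Above the dim level, 28 of the 42 members had a mean in at least 1 group. They included 8 of 11 fibrillar genes, 3 of 6 genes of the basement membrane network, 3 of 5 measured beaded filament genes, 8 of 9 measured fibril-associated genes, 1 of 3 short chain genes, 2 of 4 transmembrane genes and 1 of 2 endostatin-bearing genes, with Col7a1 of anchoring fibrils and Col26a1. The 14 dim members were Col1a1, Col4a3, Col4a4, Col4a6, Col6a4, Col6a5, Col8a1, Col10a1, Col11a2, Col15a1, Col17a1, Col19a1, Col24a1 and Col25a1. Their 196 values ran from 0 to 5.05, with 7 values at 0 in 4 genes, 5 values above the table median and a highest group mean of 4.67. Col1a1, which encodes the main chain of type I collagen, was among them, while its partner chain Col1a2 was not. A probe set that reads dim does not show that the transcript is absent. Over the 11 comparisons, 11 genes were called, in 22 results. Beside leaving out each compared array, 8 other settings were tried. The setting that left out genes with a mean below the median gene kept 6 of the 42 members in the comparisons from E10.5 on, so it gave no value for 14 of the 22 results. Of the 22, Col18a1 between the sexes at E13.5 kept its call under all 8 settings and with each compared array left out. Col3a1 from E10.5 to E13.5, in females and in males, did so under the 7 settings that gave it a value.

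**Figure D1:**
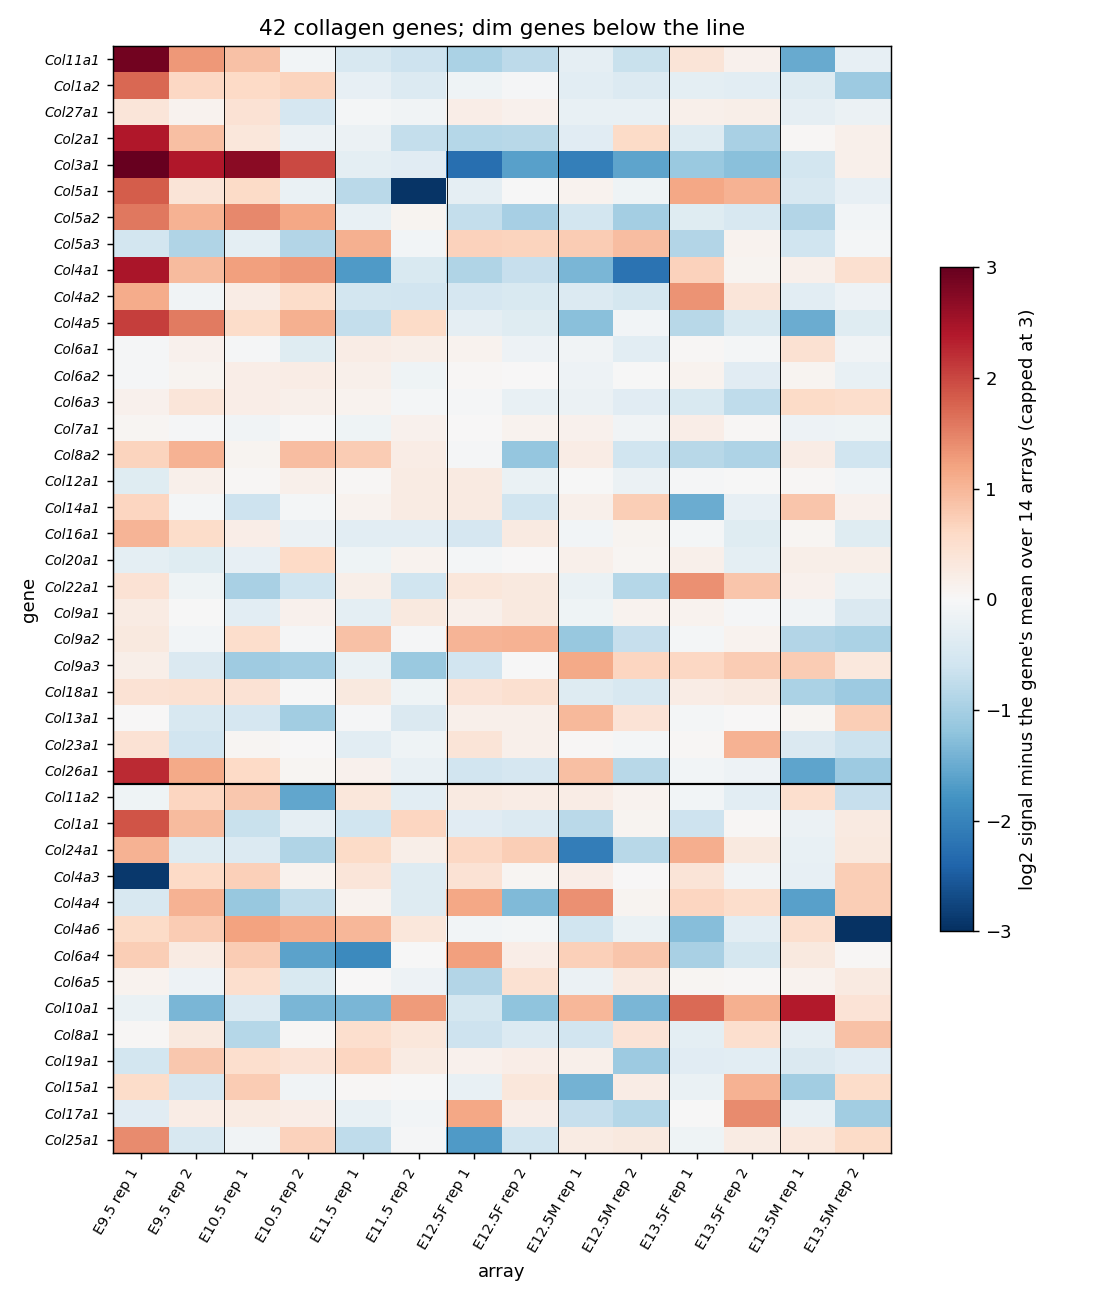
Log2 signal of the 42 collagen genes (rows) in each of the 14 arrays (columns), each gene minus its own mean and capped at 3, with the 14 dim genes below the line. Col3a1 is high in the E9.5 and E10.5 arrays, and E9.5 replicate 1 is the highest array for 10 of the 28 genes above the line.

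Of the fibrillar genes, 3 fell between E10.5 and E13.5 in both sexes, Col3a1, Col1a2 and Col5a2. Col3a1, the single chain of type III collagen, read 10.51 and 9.10 at E9.5, 9.41 and 8.67 at E10.5, and 6.41 and 6.36 at E11.5. At E12.5 it read 4.44 and 5.06 in females and 4.64 and 5.12 in males, and at E13.5 5.59 and 5.44 in females and 6.14 and 6.84 in males. The E9.5 and E10.5 arrays were all above every later array, the E12.5 arrays were the lowest, and both E13.5 groups lay above E12.5 without overlap. From E10.5 to E11.5 Col3a1 fell by 2.65 ± 0.35 (SE), a 6.30-fold difference (adjusted p = 0.0214). It was the 1 member called there, where 0.0769% of all genes were called. In females it fell by a further 1.64 from E11.5 to E12.5 (adjusted p = 0.0428), the 1 member called against 1.85% of all genes. In males the difference was -1.50 (adjusted p = 0.0856), and none of the members was called against 1% of all genes, with 9 members at an unadjusted p under 0.05. From E12.5 to E13.5 Col3a1 rose by 1.61 in males (adjusted p = 0.0435).

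Single arrays mattered to these steps between neighbouring ages. The E10.5 to E11.5 fall was called without E10.5 replicate 2 but not without E10.5 replicate 1 (adjusted p = 0.0527), E11.5 replicate 1 (0.171) or E11.5 replicate 2 (0.104). It was also lost with means of probe sets, with a floor at 3.12, with no intensity trend and with the compared arrays alone. The later female fall and the male rise were each lost without any 1 of their 4 arrays, with adjusted p of 0.137 to 0.343 and 0.0896 to 0.337. The fall over the whole span did not depend on 1 array. Against E10.5, Col3a1 was 3.52 lower in E13.5 females (11.5-fold, adjusted p = 0.000103) and 2.55 lower in E13.5 males (adjusted p = 0.000765), and both calls held with each compared array left out and under the 7 settings that gave Col3a1 a value. A second Col3a1 probe set moved by -2.13 from E10.5 to E11.5, by -2.54 from E10.5 to E13.5 females and by -1.62 to E13.5 males, and by 0.38 from E12.5 to E13.5 males.

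Col1a2, a chain of type I collagen, read 8.70 and 7.60 at E9.5, 7.58 and 7.64 at E10.5, 6.72 and 6.56 at E11.5, 6.85 and 6.94 in E12.5 females and 6.65 and 6.57 in E12.5 males. At E13.5 it read 6.68 and 6.65 in females and 6.58 and 5.88 in males. Its 4 early arrays lay above the 10 later ones, which spanned 5.88 to 6.94. Compared with E10.5, Col1a2 fell by 0.94 ± 0.25 (SE) in E13.5 females (adjusted p = 0.0236) and by 1.38 in E13.5 males (adjusted p = 0.00425). The female call was lost without any 1 of the 4 arrays compared (adjusted p of 0.0537 to 0.0968). Both calls were lost with the compared arrays alone (adjusted p = 0.122 in females and 0.119 in males). Of the other Col1a2 probe sets, 1 moved by -3.19 and -3.09 in the same comparisons and another by -0.13 and 0.48.

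Col5a2, a chain of type V collagen that joins type I fibrils, lies next to Col3a1 in the RefSeq gene order. It read 7.33 and 6.81 at E9.5, 7.21 and 6.91 at E10.5, 5.54 and 5.84 at E11.5, 5.05 and 4.76 in E12.5 females and 5.20 and 4.73 in E12.5 males. The E13.5 values were 5.40 and 5.29 in females and 4.89 and 5.67 in males. All early arrays were again above all later ones. The change from E10.5 was -1.72 ± 0.32 (SE) in E13.5 females (adjusted p = 0.00352) and -1.78 in E13.5 males (adjusted p = 0.00387), while a second Col5a2 probe set moved by -0.64 and -1.36. The female call was lost with means of probe sets (adjusted p = 0.0684) and the male call with the compared arrays alone (0.0854).

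Upstream sequence from RefSeq on GRCm38.p6 matched 33 of the members, in 36 windows of 250 bases before a gene start. The windows of Col3a1 and Col1a2 are shown because both genes were lower at E13.5 than at E10.5 in both sexes. Capitals mark the motifs searched, CCAAT and GGGCGG on either strand and TATAAA as printed.
Col3a1, chr1:45311288-45311537, plus strand: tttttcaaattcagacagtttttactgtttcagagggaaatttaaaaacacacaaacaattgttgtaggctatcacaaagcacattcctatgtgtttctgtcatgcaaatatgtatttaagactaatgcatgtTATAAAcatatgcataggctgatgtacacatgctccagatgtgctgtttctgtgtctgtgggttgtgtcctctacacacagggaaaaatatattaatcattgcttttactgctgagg
Col1a2, chr6:4505368-4505617, plus strand: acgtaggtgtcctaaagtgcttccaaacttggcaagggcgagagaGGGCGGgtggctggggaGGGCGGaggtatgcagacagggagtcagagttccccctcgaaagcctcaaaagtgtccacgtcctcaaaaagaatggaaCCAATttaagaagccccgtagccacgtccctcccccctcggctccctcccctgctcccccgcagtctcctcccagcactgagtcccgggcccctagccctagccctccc

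The Col3a1 window held 0 CpG dinucleotides and 1 TATAAA at 35.2% GC, and the Col1a2 window held 11 CpG, 1 CCAAT and 2 GGGCGG at 62% GC. Over the 36 member windows the median was 9.5 CpG at 59% GC, against 6 CpG at 52.4% GC over all 32851 windows of the same length. CCAAT was present in 13 member windows and 33.8% of all windows, GGGCGG in 21 and 32.7%, and TATAAA in 5 and 7.59%. A match describes letters and not a bound site.

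The other fibrillar members were called in no comparison. Col5a1, the partner chain of Col5a2, read 7.59 and 6.16 at E9.5, 6.35 and 5.58 at E10.5 and 4.96 and 2.85 at E11.5. Its later values were 5.51 and 5.77 in E12.5 females, 5.89 and 5.66 in E12.5 males, then at E13.5 6.95 and 6.82 in females and 5.29 and 5.54 in males. The E13.5 females lay above every array but E9.5 replicate 1, and differed from E13.5 males by 1.47 (adjusted p = 0.129). Without E11.5 replicate 1, the higher of that pair, Col5a1 was called as the 1 member in both the female and the male comparison of E12.5 with E11.5. Another Col5a1 probe set, with a mean of 5.61 against 5.78, read 5.55 and 5.54 at E11.5. At E13.5 it read 5.80 and 5.73 in females and 5.71 and 5.71 in males. It showed neither the low at E11.5 nor a sex difference of that size. The remaining Col5a1 probe set was dim, with 0.87 and 3.01 at E11.5. At E13.5 that probe set read 2.73 and 2.97 in females and 1.65 and 1.71 in males. Col2a1, the cartilage collagen, read 9.09 and 7.58 at E9.5, 7.01 and 6.51 at E10.5 and 5.71 to 7.25 later. Col11a1 read 6.56 and 4.97 at E9.5 and 2.17 to 4.56 in the other arrays. Col5a3 lay between 4.87 and 6.84 and Col27a1 between 5.77 and 6.70.

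Both main chains of type IV collagen had their lowest group means at E11.5 or E12.5. Col4a1 and Col4a2 are neighbouring genes that encode the chains of the most widespread basement membrane network. Col4a1 read 8.05 and 6.55 at E9.5, 6.85 and 6.90 at E10.5, 3.92 and 5.15 at E11.5, 4.70 and 4.93 in E12.5 females and 4.24 and 3.39 in E12.5 males. At E13.5 it read 6.31 and 5.70 in females and 5.77 and 6.08 in males. The E11.5 and E12.5 arrays were all below those of E13.5, which were in turn below the early arrays. The difference from E10.5 to E11.5 was -2.34 ± 0.42 (SE) and was not called (adjusted p = 0.0915). A second Col4a1 probe set read 5.11 and 4.93 at E10.5 and 4.55 and 5.18 at E11.5. From E12.5 to E13.5 in males Col4a1 rose by 2.11 ± 0.42 (adjusted p = 0.0340), which with Col3a1 made 2 members called against 2.1% of all genes. The call was lost without any 1 of the 4 arrays (adjusted p of 0.126 to 0.190), and the second Col4a1 probe set moved by -0.12, the opposite sign.

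Col4a2 read 8.21 and 6.99 at E9.5, 7.31 and 7.65 at E10.5, 6.55 and 6.51 at E11.5, 6.59 and 6.63 in E12.5 females and 6.67 and 6.56 in E12.5 males. At E13.5 the females read 8.43 and 7.45 and the males 6.78 and 6.95. The 6 arrays of E11.5 and E12.5 spanned 6.51 to 6.67 and every other array lay above them. The female difference from E12.5 to E13.5 was 1.33 and just missed the threshold (adjusted p = 0.0515), and none of the members was called there against 1.91% of all genes, although 9 had an unadjusted p under 0.05. Col4a2 was called when replicate 2 of the E13.5 females was left out. Col4a5, a chain of more specialised basement membranes, read 6.31 and 5.81 at E9.5, 4.80 and 5.32 at E10.5 and 2.76 to 4.82 later, with no call. A replicate block in the model gave calls from E10.5 to E13.5 of -1.465 in females (adjusted p = 0.0350) and -1.74 in males (0.0216). Means of its probe sets gave a call of -1.89 in males (adjusted p = 0.00886).

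**Figure D2:**
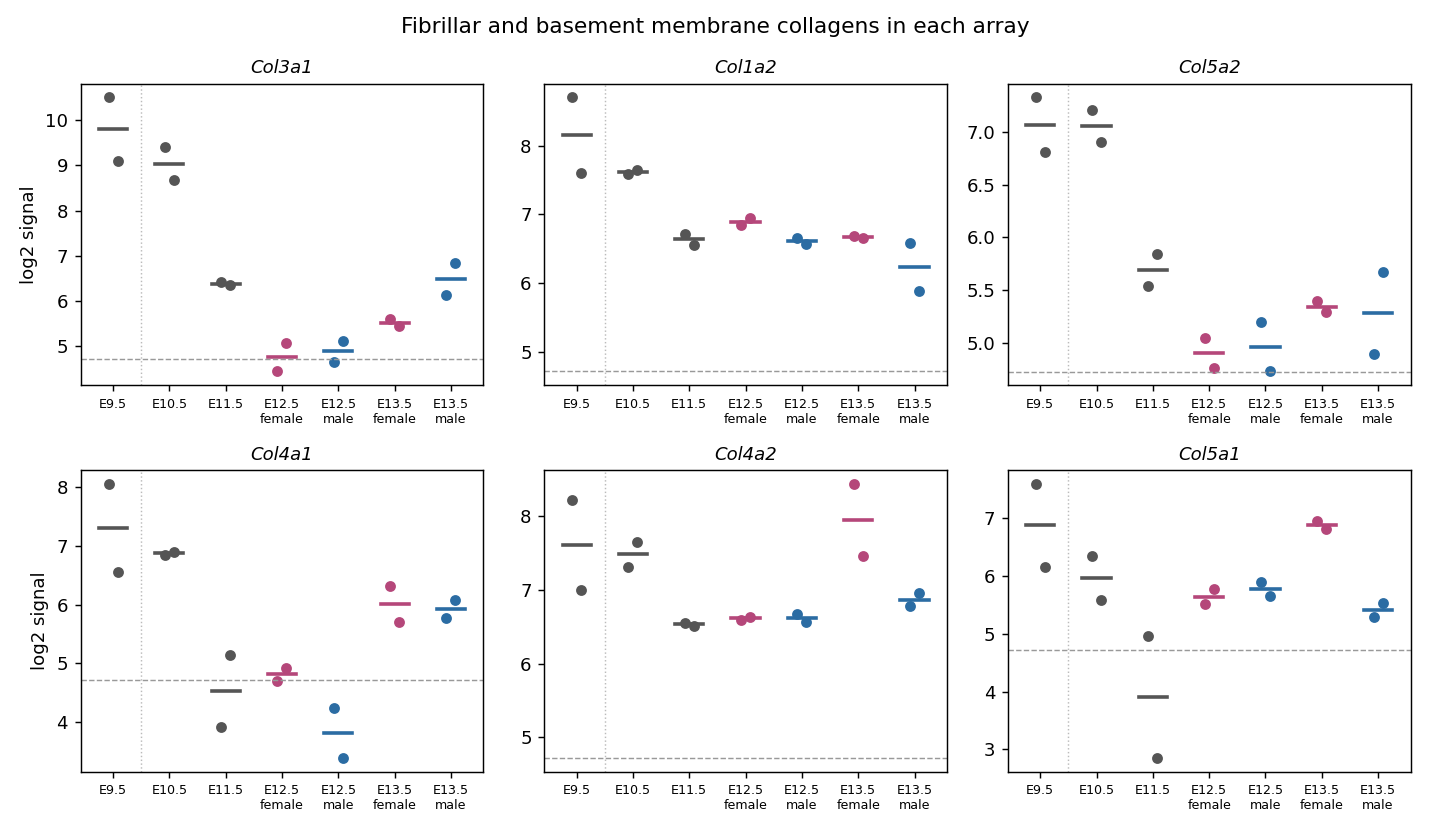
Log2 signal of 6 collagen genes by group, with dots for arrays, bars for group means, a dashed line at the table median of 4.72 and a dotted line beside the E9.5 arrays. Col3a1, Col1a2, Col5a2 and Col4a1 have all E9.5 and E10.5 arrays above all later arrays, and Col4a2 in E13.5 females reads 8.43 and 7.45.

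Arrays of E9.5 and E10.5 all lay above the 10 later arrays for 4 members, Col3a1, Col1a2, Col5a2 and Col4a1, which is 9.52% of the members against 1.91% of all genes. They all lay below the later arrays for none of the members against 2.3% of all genes. A second probe set also separated the early from the later arrays for Col3a1 and Col5a2. For Col1a2, 1 further probe set did so and another did not. The second Col4a1 probe set did not, with 4.93 to 6.84 in the early arrays and 3.87 to 5.59 later. E10.5 and E9.5 themselves differed in no called member, against 1.06% of all genes, with 7 members at an unadjusted p under 0.05. The share of all genes called depended on single arrays: it was 10.6% without E10.5 replicate 1, 0.28% without E10.5 replicate 2 and 0.363% without E9.5 replicate 1. The median member difference was -0.25 against -0.06 over all genes. Col2a1 differed by -1.58 (adjusted p = 0.155) and the dim Col1a1 by -1.88 (adjusted p = 0.152). Without E9.5 replicate 2, Col2a1 differed by -2.33 and the dim Col4a3 by 3.315, in opposite directions. Col4a3 read 0 in E9.5 replicate 1, 3.49 in E9.5 replicate 2 and 3.62 and 3.01 at E10.5. E9.5 replicate 1 read above replicate 2 in 22 of the 28 brighter members, by a median of 0.50 over those members, against 55.3% of all brighter genes and a median of 0.07.

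Of the marker lists of other cell types, those of mesenchyme, blood, endothelium, and muscle and heart also had lower sums after E10.5. The summed signal of 15 mesenchyme markers, on a log2 scale, was 9.33 to 11.26 at E9.5, 8.77 to 8.86 at E10.5, 7.78 to 7.80 at E11.5, 7.42 to 8.06 at E12.5 and 7.82 to 8.55 at E13.5. Among them Pdgfra, a receptor of mesenchymal cells, read 5.65 and 6.53 at E10.5 and 3.01 and 4.23 at E11.5. Of the 15, Nr2f1 was the 1 called from E10.5 to E11.5, and Twist2 was at 0 in some arrays. From E12.5 to E13.5 females, 2 of the 15, Nr2f1 and Snai2, were called higher, where 1.91% of all genes were called in either direction. The summed signal of 10 blood markers was 13.69 to 14.59 at E9.5, 11.39 to 11.75 at E10.5, 8.33 to 9.05 at E11.5 and 7.49 to 9.11 later. The sum for 13 endothelial markers was 10.53 to 10.86 at E9.5, 10.20 to 10.68 at E10.5, 10.12 to 10.14 at E11.5, 9.87 to 10.19 at E12.5, 9.48 to 9.59 in E13.5 females and 9.87 to 10.13 in E13.5 males. From E10.5 to E13.5, 6 of these 13 were called lower in females and 4 lower and 1 higher in males. In the same comparisons 2 of 15 mesenchyme markers and 2 of 10 blood markers were called lower in each sex. For 10 muscle and cardiac markers the sum was 10.47 to 11.02 at E9.5 and 9.90 to 10.07 at E10.5. It was 9.20 to 9.21 at E11.5, 8.89 to 9.34 at E12.5 and 8.45 to 9.35 at E13.5. Actc1 of this list was called lower from E10.5 to E11.5. From E10.5 to E13.5, 2 of the 10 were called lower in females and 3 in males, with 0 higher. The sum for 12 germ cell markers was 15.38 to 15.85 over all arrays. From E10.5 to E13.5, 2 of them were called higher and 6 lower in females, and 2 higher and 3 lower in males. Over all genes 6.4% were lower and 11.4% higher in females, and 5.27% lower and 7.44% higher in males. Some other lists rose in females. The gut endoderm sum was 8.97 to 9.04 at E10.5 and 9.62 to 9.69 in E13.5 females, with 3 of 10 called higher and none lower. For female supporting cells it was 8.69 to 8.98 and 9.65 to 9.69, with 3 of 9 called higher and none lower. In males 1 gut endoderm marker was called lower, and 1 female supporting cell marker higher and 2 lower. The part of these cells in the collagen levels was not tested.

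**Figure D3:**
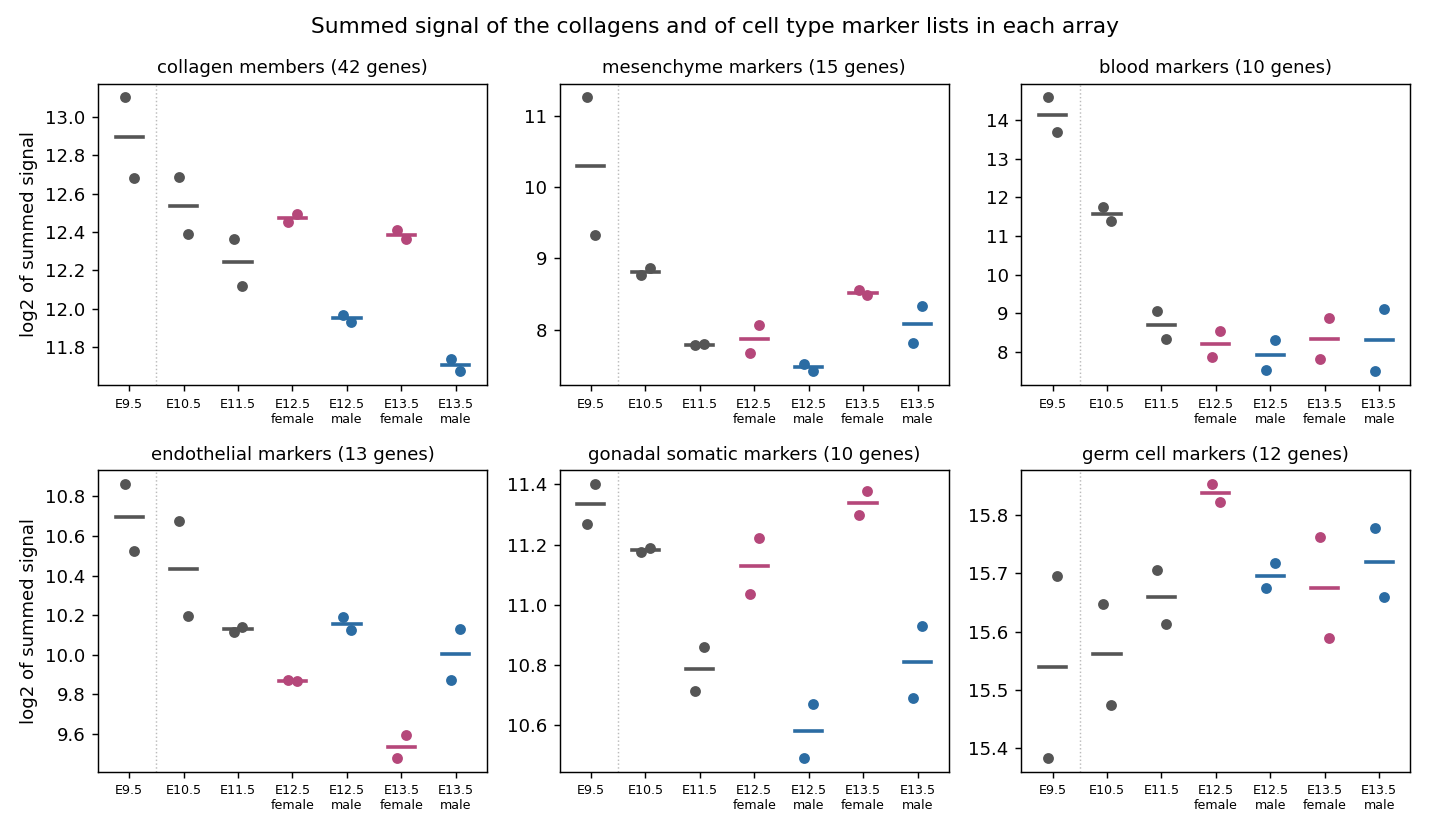
Log2 of the summed linear signal of 6 gene lists in each group, with dots for arrays. The mesenchyme sum falls from 9.33 to 11.26 at E9.5 to 7.78 to 7.80 at E11.5 and the blood sum from 13.69 to 14.59 to 8.33 to 9.05, while the sum of 12 germ cell genes stays between 15.38 and 15.85.

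Across the whole span from E10.5 to E13.5, 6 members were called in females and 7 in males. In females 4 were lower and 2 higher, which is 14.3% of the members against 17.8% of all genes, 6.4% lower and 11.4% higher. In males 5 were lower and 2 higher, 16.7% of the members against 12.7% of all genes, 5.27% lower and 7.44% higher. The median difference over the 42 members was -0.05 in females and -0.17 in males, against 0.08 and 0.07 over all genes. These comparisons share the E10.5 arrays. With the compared arrays alone, 3 members were called in females and 1 in males, against 5.39% and 3.11% of all genes. Of the 6 members kept when the dimmer genes were left out, 2 were called in each sex, against 29.6% and 21.2% of all genes kept. Col3a1, Col1a2 and Col5a2 were lower in both sexes, as described, and Col9a3 was higher in both.

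Col9a3, a chain of the fibril-associated type IX collagen of cartilage, read 4.78 and 4.17 at E9.5, 3.53 and 3.57 at E10.5, 4.39 and 3.49 at E11.5, 4.02 and 4.59 in E12.5 females and 5.74 and 5.24 in E12.5 males. At E13.5 it read 5.23 and 5.37 in females and 5.35 and 4.92 in males. Every E13.5 array and both E12.5 male arrays lay above all earlier arrays. Starting from a dim level, Col9a3 rose by 1.75 ± 0.37 (SE) from E10.5 to E13.5 females (adjusted p = 0.00783) and by 1.58 to E13.5 males (adjusted p = 0.0177). Both calls were lost with means of probe sets, and that in males also with the compared arrays alone. The male call was lost without E10.5 replicate 2 (adjusted p = 0.0514) or E13.5 male replicate 1 (0.121). Its 2 other probe sets moved by 1.36 and 0.60 in females and by 2.04 and 0.67 in males. The male minus female difference at E12.5 was 1.18 and was not called (adjusted p = 0.157).

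Col22a1, a fibril-associated collagen of tissue junctions, read 3.35 and 3.72 at E10.5 and 5.71 and 5.15 in E13.5 females. It read 4.77 and 4.21 at E9.5, 4.51 and 3.72 at E11.5, 4.67 and 4.63 in E12.5 females, 4.12 and 3.47 in E12.5 males and 4.45 and 4.12 in E13.5 males. The E13.5 females were the highest 2 of the 14 arrays. Col22a1 rose by 1.90 ± 0.38 (SE) from E10.5 in females (adjusted p = 0.00593), starting from a dim level, and the call was lost without E13.5 female replicate 1 (adjusted p = 0.0607). The call was also lost with the compared arrays alone (adjusted p = 0.0563). The other Col22a1 probe sets moved by 1.57 and -0.23. Col13a1, a transmembrane collagen of cell junctions, read 5.81 and 5.27 at E10.5 and 6.37 and 7.05 in E13.5 males, a rise of 1.17 ± 0.31 (SE, adjusted p = 0.0331). It was 6.32 and 5.83 at E9.5, 6.28 and 5.88 at E11.5, 6.47 and 6.47 in E12.5 females, 7.29 and 6.73 in E12.5 males and 6.26 and 6.32 in E13.5 females. The call was lost without E10.5 replicate 2 or E13.5 male replicate 2. It was also lost with the floor, with no intensity trend and with the compared arrays alone.

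**Figure D4:**
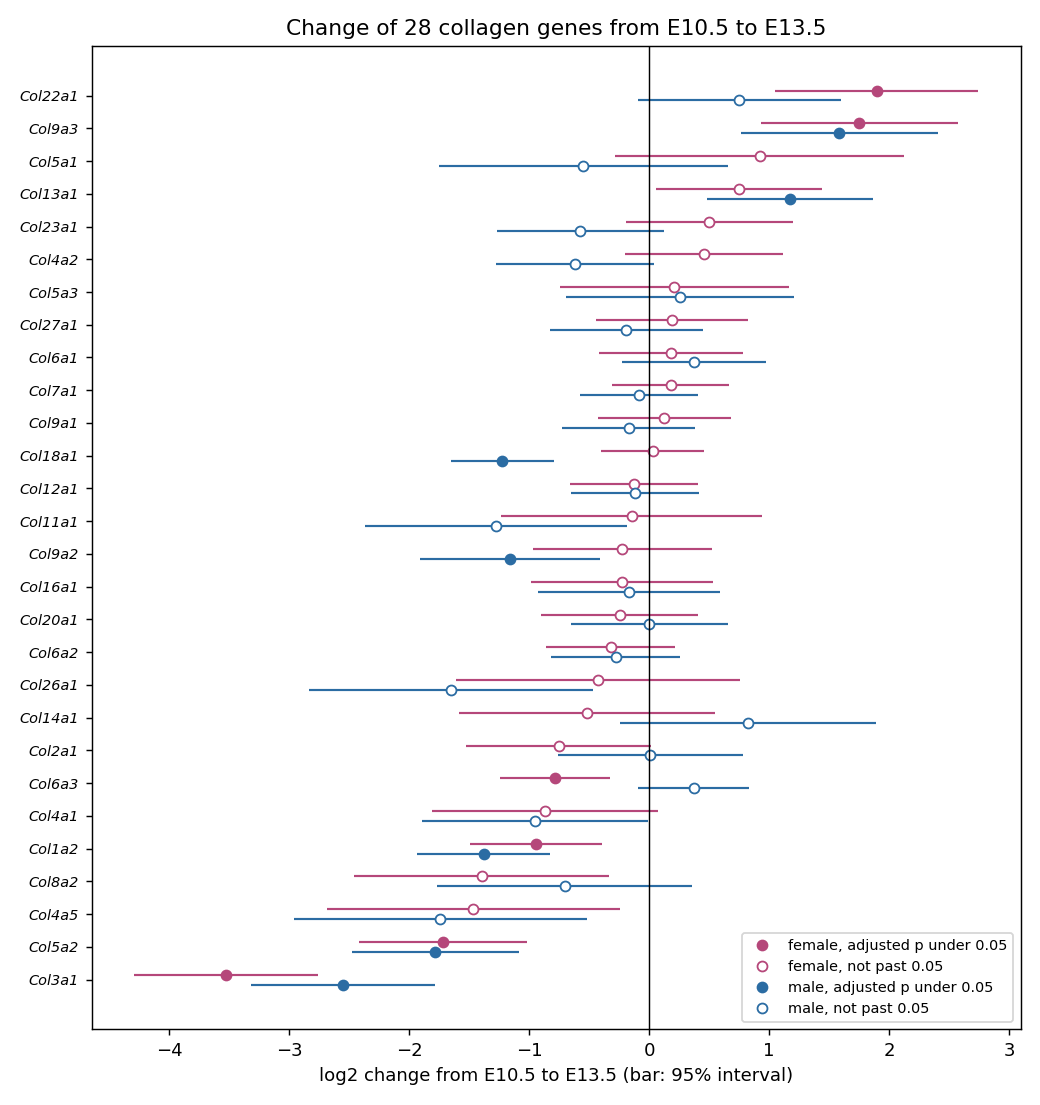
Difference in log2 signal from E10.5 to E13.5 in females and in males for the 28 collagen genes above the dim level, with 95% intervals from the model, and filled points for adjusted p under 0.05. Col3a1 has the largest fall in both sexes (-3.52 and -2.55), and Col22a1 (1.90) and Col9a3 (1.75) are the filled rises in females.

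Between the sexes, Col18a1 was called at both ages. It encodes the type XVIII collagen of basement membranes, the source of endostatin. Its arrays read 11.80 and 11.82 at E9.5, 11.81 and 11.36 at E10.5 and 11.67 and 11.25 at E11.5. Females read 11.78 and 11.85 at E12.5 and 11.60 and 11.63 at E13.5, and males 10.98 and 10.90 at E12.5 and 10.43 and 10.29 at E13.5. All 4 male arrays lay below all 10 other arrays. Males were lower than females by 0.88 at E12.5 (adjusted p = 0.0452) and by 1.26 at E13.5 (adjusted p = 0.00231). In E13.5 males Col18a1 had fallen by 1.22 ± 0.19 (SE) from E10.5 (adjusted p = 0.00197), a call lost with the compared arrays alone (0.0800). The E13.5 sex difference was called under all 8 other settings and with each compared array left out. The E12.5 difference was lost without any 1 of its 4 arrays (adjusted p of 0.192 to 0.282), and with median centring, the floor or no trend. A second Col18a1 probe set gave male minus female differences of -1.13 for E12.5 and of -1.37 for E13.5.

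The RefSeq table lists 2 starts for Col18a1, and the 250 bases before each are shown with the same capitals, since this member was called between the sexes at both ages. The probe sets do not tell which start was used.
Col18a1, chr10:77113706-77113955, minus strand: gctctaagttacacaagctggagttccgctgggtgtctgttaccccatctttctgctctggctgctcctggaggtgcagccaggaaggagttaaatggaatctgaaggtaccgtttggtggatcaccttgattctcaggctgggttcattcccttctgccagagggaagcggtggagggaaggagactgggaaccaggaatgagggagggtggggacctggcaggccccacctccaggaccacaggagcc
Col18a1, chr10:77166531-77166780, minus strand: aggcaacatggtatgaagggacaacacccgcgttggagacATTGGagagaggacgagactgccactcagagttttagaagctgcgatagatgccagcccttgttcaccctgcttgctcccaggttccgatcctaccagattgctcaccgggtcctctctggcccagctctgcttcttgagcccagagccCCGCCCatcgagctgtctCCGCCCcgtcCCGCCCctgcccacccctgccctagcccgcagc

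The first of these windows held 3 CpG and none of the motifs. The other held 12 CpG, 1 CCAAT and 3 GGGCGG, all on the opposite strand to the one printed.

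Col9a2, another type IX chain, was the other member called between the sexes at E12.5. It read 5.81 and 5.43 at E9.5, 6.04 and 5.47 at E10.5, 6.39 and 5.47 at E11.5, 6.52 and 6.56 in E12.5 females, and 4.37 and 4.81 in E12.5 males. At E13.5 it read 5.45 and 5.61 in females and 4.62 and 4.57 in males. The 4 male arrays were the lowest of the 14. Males of E12.5 were lower by 1.95 (adjusted p = 0.0146), and from E10.5 to E13.5 males Col9a2 fell by 1.16 ± 0.34 (SE, adjusted p = 0.0475). The sex difference was lost without any 1 of the 4 arrays (adjusted p of 0.0557 to 0.130), and the fall without E10.5 replicate 1 (0.183), E13.5 male replicate 1 (0.151) or E13.5 male replicate 2 (0.174). The fall was also lost with the floor, no intensity trend, the compared arrays alone and a replicate block in the model. Both called members at E12.5 were lower in males, and together they were 4.76% of the members against 2.39% of all genes. Col9a1, the remaining type IX chain, lay between 8.34 and 9.07 with no call.

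At E13.5, 3 members were called between the sexes, 7.14% of the members against 10.2% of all genes: Col18a1 and Col4a2 lower in males and Col6a3 higher. Col6a3, the large chain of type VI beaded filaments, read 7.35 and 7.59 at E9.5, 7.43 and 7.39 at E10.5, 7.33 and 7.17 at E11.5, 7.20 and 7.0 in E12.5 females, and 7.06 and 6.89 in E12.5 males. At E13.5 it read 6.78 and 6.47 in females and 7.81 and 7.75 in males. The E13.5 females were the lowest arrays and the E13.5 males the highest. Males were higher by 1.16 (adjusted p = 0.00553), and females had fallen by 0.78 ± 0.21 (SE) from E10.5 (adjusted p = 0.0247). The sex difference was lost without E13.5 female replicate 2 (adjusted p = 0.0501). The fall was lost without E10.5 replicate 1, E10.5 replicate 2 or E13.5 female replicate 2, and with the compared arrays alone. For Col4a2 the difference was -1.08 ± 0.30 (SE, adjusted p = 0.0449), and it was lost without E13.5 female replicate 1 (adjusted p = 0.291), E13.5 male replicate 1 (0.203) or E13.5 male replicate 2 (0.133). It was also lost with quantile normalization, median centring, the floor, no intensity trend and the compared arrays alone.

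The change of the sex difference from E12.5 to E13.5 was called for none of the members, against 0.011% of all genes, with 4 members at an unadjusted p under 0.05. For Col6a3 it was 1.28 ± 0.29 (SE, adjusted p = 0.199). The sex difference was therefore not shown to differ between the ages for any member. Over both ages, the 4 male arrays lay below the 4 female arrays for 6 members, Col18a1, Col9a2, Col22a1, Col23a1, Col27a1 and the dim Col17a1, which is 14.3% of the members against 8.9% of all genes. They lay above for 1 member, Col2a1, 2.38% against 6.24% of all genes. Among the 6, the other probe sets of Col23a1 and Col27a1 overlapped between the sexes, and that of Col18a1 did not. For Col22a1, 1 other probe set had all male arrays above all female arrays, at 4.14 to 4.93 against 3.32 to 4.07, and another overlapped. Of 11 markers of male supporting cells, 2 were called higher in males and none lower at E12.5 and again at E13.5, Cst9 and Ptgds, against 2.39% and 10.2% of all genes called in either direction. Their count was 0 to 2 over the alternatives. The summed signal of the 11 was 10.11 to 10.18 in E12.5 males, 10.06 to 10.41 in E13.5 males, 9.78 to 9.88 in E12.5 females and 9.21 to 9.38 in E13.5 females. Cst9 read 7.20 and 7.84 in E12.5 males, 9.11 and 8.44 in E13.5 males and 1.15 to 3.52 in the female arrays. Ptgds read 5.95 to 7.54 in males and 3.76 to 4.66 in females. Other members of the list had lower means in males, such as Aard (8.79 in E12.5 females and 8.08 in E12.5 males). Sox9, the defining factor of these cells, was dim in all arrays (2.05 to 4.23). At E13.5, 3 of 9 markers of female supporting cells and 3 of 10 gut endoderm markers were called lower in males and none higher. Of 13 endothelial markers, 2 were called higher in males and none lower. The part of any of these cell types in the collagen differences was not tested.

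**Figure D5:**
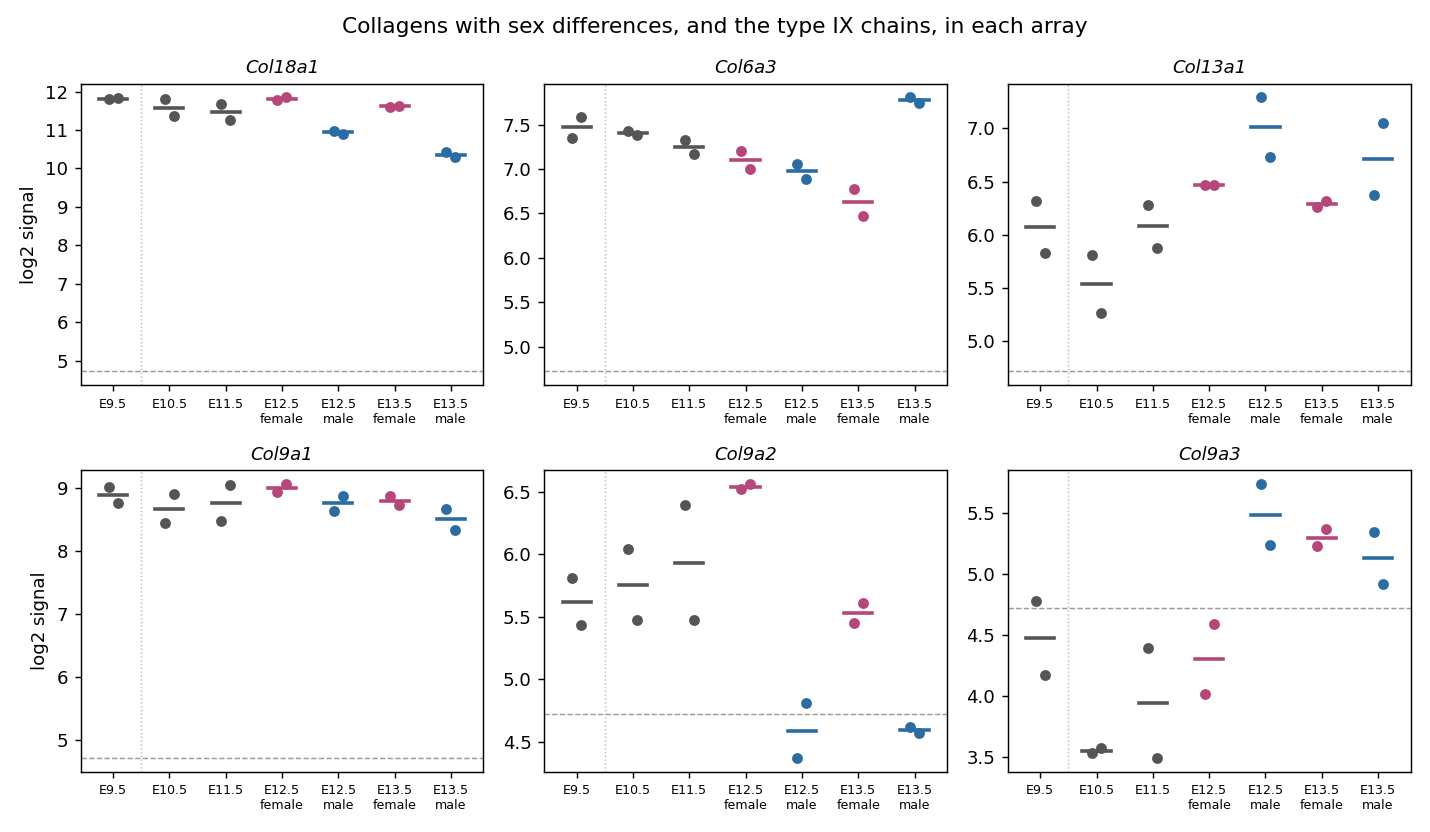
Log2 signal of 6 collagen genes by group, with dots for arrays and bars for group means. The 4 male arrays of Col18a1 (10.29 to 10.98) and of Col9a2 (4.37 to 4.81) are the lowest of the 14, and Col6a3 is lowest in E13.5 females and highest in E13.5 males.

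The remaining members above the dim level were called in no comparison. Col7a1, the anchoring fibril chain, read 6.03 to 6.39 over the 14 arrays (median 6.20). Col6a1 and Col6a2, the partner chains of Col6a3 and neighbours of each other, read 5.22 to 6.04 and 5.83 to 6.38. The fibril-associated Col12a1 read 5.58 to 6.22, Col20a1 5.70 to 6.65, Col14a1 3.0 to 5.33 and Col16a1 4.04 to 5.57. Col23a1, a transmembrane collagen, read 5.06 to 6.74 and was 1.08 lower in E13.5 males than in females (adjusted p = 0.0562). Col8a2 of the short chain networks read 3.72 to 5.93, and Col26a1 5.82 and 4.71 at E9.5 and 2.01 to 4.49 later.

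Genes that build collagen were measured for 28 of 37 listed for synthesis, folding, secretion and cross-linking. From E10.5 to E13.5, 8 rose and 2 fell in females, where 11.4% of all genes rose and 6.4% fell. In males 1 rose and 1 fell, against 7.44% and 5.27% of all genes. At E13.5, 6 were lower in males than in females and none higher, where 10.2% of all genes were called in either direction, and at E12.5 2 were lower, against 2.39%. P4ha2, a subunit of the prolyl hydroxylase that stabilises the triple helix, read 7.02 and 6.69 at E10.5, 6.83 and 6.42 at E11.5, 8.29 and 8.36 in E12.5 females, and 6.85 and 7.23 in E12.5 males. At E13.5 it read 8.98 and 8.98 in females and 7.11 and 6.65 in males. The 4 female arrays lay above all other arrays. It rose by 2.12 in females from E10.5 (adjusted p = 0.000281) and was 2.10 lower in E13.5 males than in females (adjusted p = 0.000505), both kept with each compared array left out. Crtap, a partner of the prolyl 3-hydroxylase, rose by 1.35 in females (adjusted p = 0.000573), and its E13.5 males were 1.02 lower (adjusted p = 0.00517), which was lost without E13.5 female replicate 1 or E13.5 male replicate 2. Pcolce2, an enhancer of procollagen processing, fell by 1.91 in males (adjusted p = 0.000491). Counts for this list moved with the settings: over all alternatives, 2 to 8 rose in females from E10.5, and 1 to 8 were lower in males at E13.5.

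Of 17 measured basement membrane partners, 7 rose and 3 fell in females from E10.5 to E13.5, and 4 rose and 1 fell in males, where 17.8% and 12.7% of all genes were called in either direction. Lamb2, a laminin chain, read 5.46 and 4.96 at E10.5, 7.45 and 7.39 in E13.5 females and 4.84 and 4.90 in E13.5 males. It rose by 2.21 in females (adjusted p = 0.000489) and was 2.55 lower in E13.5 males than females (adjusted p = 0.000384). Nid1, the linker of laminin to type IV collagen, went the other way: it read 6.90 and 6.97 at E10.5, 4.75 and 4.42 in E13.5 females and 7.05 and 7.61 in E13.5 males, 2.75 higher in males (adjusted p = 0.000183). At E13.5 2 of the 17 were higher in males and 3 lower, and at E12.5 1 was higher and 3 lower, against 10.2% and 2.39% of all genes called. Smoc1, a secreted calcium-binding protein, rose by 2.09 in males from E10.5 (adjusted p = 9.79e-05). Over all alternatives, 4 to 7 rose in females from E10.5 and 1 to 5 in males.

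Interstitial matrix partners, 22 measured, included no called rise from E10.5 to E13.5 in either sex, though some alternatives gave called rises in each sex. In females 6 fell and in males 4, against 6.4% and 5.27% of all genes, and over all alternatives 1 to 6 and 1 to 4 fell. Vcan, a large proteoglycan, read 7.11 and 7.09 at E10.5, 5.23 and 5.56 in E13.5 females and 5.87 and 5.60 in E13.5 males. Sparc, a matrix protein that binds collagen, read 11.05 and 10.29 at E10.5, 9.06 and 9.80 in E13.5 females and 7.94 and 7.97 in E13.5 males, a fall of 2.71 in males (adjusted p = 0.000179). Of 10 measured collagen receptors, Itga1, an integrin subunit, fell by 2.22 in males from E10.5 (adjusted p = 0.00234) and no receptor was called in females. With the mean of each gene's probe sets, the calls for Itga1, for Vcan in both sexes and for Nid1 were lost. Itga1 was also lower by 1.45 in E13.5 males than in females (adjusted p = 0.0291), with the opposite sign, 0.34, under that setting. Of 15 measured genes of collagen breakdown, the inhibitor Timp1 fell by 2.0 in females (adjusted p = 0.00102) and by 2.32 in males (adjusted p = 0.00052). The protease Mmp13 rose in both sexes between dim levels, and its call was lost with a floor at 3.12.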

How the data were processed

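Per the series' design text, the authors normalized all 14 arrays together, and the deposited values are log2 probe set signals. Which software, background correction or summarization they used is not stated in the sources used here. Of 45101 probe sets, 34958 had a single gene symbol. Probe sets with several (932) or none (9211) were left out, which left 18194 genes with 1 probe set each.

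The limma package (version 3.58.1, R 4.3.3) fitted a mean for each group, with moderated variances that follow intensity. A fit of 12 arrays, without E9.5, served 10 comparisons (6 residual degrees of freedom), and a fit of all 14 served E10.5 against E9.5 (7). The Benjamini-Hochberg method adjusted the two-sided p-values over all genes. The procedure was tested on simulated data. Members called in any comparison are given by array, other members by ranges and selected arrays, and companion genes are those with the lowest adjusted p of each list. Members and lists were chosen with earlier results of these data known. The alternatives were quantile normalization, median centring, genes below the median gene left out, means of probe sets, a floor at 3.12, no trend, the compared arrays alone, a replicate block and each compared array left out.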

Additional observations from a re-analysis of the deposited data

Results flagged for a closer look

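Groups of 2 arrays allow no test for an outlying array. The following member differences between the sexes passed the test of the difference itself. At E12.5, males minus females was -0.88 for Col18a1 and -1.95 for Col9a2. At E13.5 it was -1.26 for Col18a1, -1.08 for Col4a2 and 1.16 for Col6a3.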

How the results depend on the processing

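Of the 22 called member results, 8 kept the call with each compared array left out, with no sign reversed. Leaving out genes below the median gene kept 6 members (7 for E10.5 against E9.5) and gave no value for 14 of the 22. Under the other settings, 2 kept the call in all 8 and 3 in the 7 that gave a value; with arrays left out as well, 1 and 2 did. Counts of called members, otherwise 1 for E11.5 against E10.5 and for E12.5 females against E11.5, became 0 in both with dim genes left out, means of probe sets, the floor, no trend or the compared arrays alone. For E13.5 against E12.5 males, 2 became 0 under these settings, except 1 with the floor. That 1 was Col6a3, while Col3a1 and Col4a1 both lost their calls with the floor. From E10.5 to E13.5, 6 in females became 2 with dim genes left out and 3 with the compared arrays alone, and 7 in males became 2 and 1. With dim genes left out, 29.6% of all genes kept were called in females and 21.2% in males. The sex count at E12.5, 2, became 1 with median centring, dim genes left out, the floor or no trend. For E13.5 against E12.5 females, 0 became 1 with dim genes left out. Leaving out single arrays gave 0 to 2 called members for E10.5 against E9.5, 0 to 1 for each of E11.5 against E10.5, E12.5 of each sex against E11.5 and E13.5 against E12.5 females, 0 for E13.5 against E12.5 males and for the sexes at E12.5, 4 to 5 and 5 to 6 from E10.5 to E13.5 in females and males, and 2 to 3 for the sexes at E13.5. Among companion genes, Itga1 between the sexes at E13.5 was 0.34 with means of probe sets, the opposite sign. With dim genes left out, the lost calls were of genes removed by that setting. The cause of the other changes was not tested, apart from fewer arrays in some settings.

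The 15 correlations of replicate differences between groups ran from -0.19 to 0.276, with 2 above 0.1. Whether replicate numbers pair the arrays was not tested. With the replicate block, the count became 0 for E12.5 females against E11.5 and 0 for E13.5 against E12.5 males, and Col3a1 and Col4a1 in these and Col4a2 between the sexes at E13.5 lost their calls. The count was 7 for females and 7 for males from E10.5 to E13.5, with Col4a5 added in both and Col9a2 lost in males. It was 2 for the sexes at each age, 1 for E11.5 against E10.5 and 0 elsewhere. Over all genes, single arrays left out moved the counts from 193 to 51 to 1927 for E10.5 against E9.5, from 337 to 23 to 169 for E12.5 females against E11.5, from 348 to 0 to 89 for E13.5 against E12.5 females, from 435 to 94 to 148 for the sexes at E12.5 and from 1849 to 916 to 1052 at E13.5. With the compared arrays alone they were 981 in place of 3239 and 566 in place of 2312 from E10.5 to E13.5 in females and males.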
